A study of Rattus norvegicus with 12 samples.

Results

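The nitric oxide and cGMP pathway was followed through 9 genes chosen by name: the nitric oxide synthases Nos1, Nos2 and Nos3, the phosphodiesterase Pde5a, the kinase Prkg1, the dimethylarginine hydrolases Ddah1 and Ddah2, and the arginases Arg1 and Arg2. Each of the 9 had a row of its own among the 19230 rows of the table, none of them merged with another gene. The table covers Sprague-Dawley rats in 4 groups of 3 libraries. ECs are endothelial cells of WT rats labelled normoxia, with day 4 in the sample labels and 0 in the column names; their source is labelled lung, and how they were isolated is not stated. The lungs labelled Ahr-KO were total lung at day 4 of SuHx, which combines the VEGF receptor inhibitor SU5416 (Sugen) with hypoxia and serves as a model of pulmonary arterial hypertension. WT SuHx lungs had the same treatment and day, and WT normoxia lungs were taken at day 0. No group given SU5416 or hypoxia alone and no Ahr-KO normoxia group was analysed here, and the labels do not say whether a library is 1 animal, so p-values measure the spread between libraries.

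Nitric oxide synthases make nitric oxide from L-arginine with tetrahydrobiopterin (BH4) as cofactor. The gas enters vascular smooth muscle, activates soluble guanylate cyclase and raises cGMP, which acts through cGMP-dependent protein kinase to relax the vessel; PDE5 breaks cGMP down and is the target of sildenafil, a drug used in pulmonary hypertension. Asymmetric dimethylarginine inhibits the synthases and is hydrolysed by the DDAH enzymes, while arginases use up the same substrate, L-arginine.

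Values are signals, estimated reads that were scaled once for each library; means are ± SD over 3 libraries. Fold changes are on the log2(signal + 1) scale, ± standard error, from limma, and a gene counts as called where its p, adjusted by Benjamini-Hochberg over all tested rows, is under 0.05. Library totals stood for 20037000 to 28593000 reads. The targeted gene, Ahr, had signals of 2515, 2523 and 1800 in Ahr-KO libraries and 1996, 3073 and 1740 in WT SuHx libraries, so its mRNA was not called lower (log2 fold change 0.03 ± 0.26, adjusted p = 0.966). Which exons were deleted is not stated, and the group is therefore called the lungs labelled Ahr-KO. Cyp1a1, a classical AhR target gene, ranged over 3.87 to 5.32 in Ahr-KO libraries and 65459 to 75070 in WT SuHx libraries. In the ECs all 10 endothelial markers (such as Cdh5, Vwf and Pecam1) were called higher than in normoxia lung, with a summed signal of 261127 to 318900 against 91378 to 96038. Other cells were not absent from the ECs. The 7 alveolar epithelial markers summed to 102559 to 230400 in ECs and 473709 to 689799 in normoxia lung, and the 3 leukocyte markers Ptprc, Cd3e and Itgam were all called higher in ECs, with sums of 9769 to 15670 against 4317 to 5375 in normoxia lung. The 6 cardiac muscle markers, at 176 to 376 in ECs, varied widely in lung and were highest in library 2 of the Ahr-KO group (23697) and of the normoxia group (10924).

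Most of the 9 genes differed between ECs and lung, while none of them was called between lung groups. In ECs, 4 were higher (Nos1, Nos2, Nos3, Arg1) and 3 lower (Pde5a, Prkg1, Ddah1) than in normoxia lung, 7 of 9 called where 56.2% of all 15186 tested rows were called, 26.1% higher and 30.1% lower (at an unadjusted p under 0.05, 7 of 9 and 61.4% of rows). With so many rows called, the count alone does not set the 9 genes apart. For WT SuHx against normoxia lung limma called 0 of 9, beside 13.5% of 15234 tested rows, and 3 had an unadjusted p under 0.05 (31.7% of rows). For the lungs labelled Ahr-KO against WT SuHx lung it called 0 of 9, beside 0.499% of rows, with 2 at an unadjusted p under 0.05 (13.6% of rows). For the lungs labelled Ahr-KO against normoxia lung it called 0 of 9, beside 9.75% of rows, with 3 at an unadjusted p under 0.05 (26% of rows). The median log2 fold change of the 9 genes was -0.06 in ECs against normoxia lung, where that of all rows was -0.05. In the lung comparisons it was -0.06 for WT SuHx against normoxia (all rows -0.04), 0.14 for Ahr-KO against WT SuHx (all rows 0.02) and 0.19 for Ahr-KO against normoxia (all rows -0.03). All 9 passed the filter on low values in each fit. The comparisons share libraries, since normoxia lung is the control of 3 of them.

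**Figure D1:**
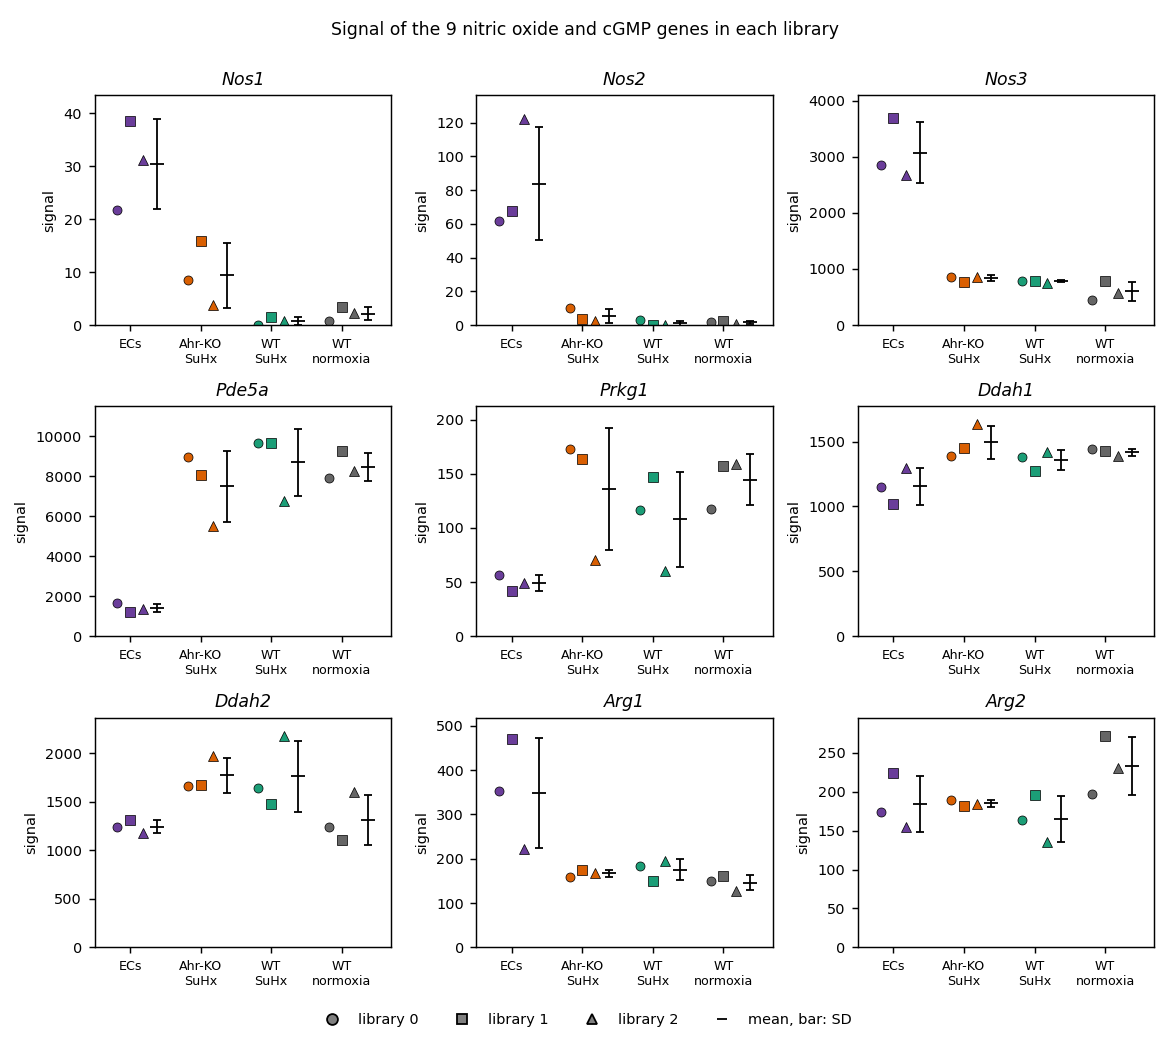
Signal (linear axis from 0) of each of the 9 genes in every library of the ECs, the lungs labelled Ahr-KO under SuHx, the WT SuHx lungs and the WT normoxia lungs; symbols give the library number and the bar beside each group is mean ± SD (n = 3). Nos1, Nos2 and Nos3 stand highest in the ECs and Pde5a and Prkg1 lowest, while the 3 lung groups lie close together for Ddah1 and Arg1.

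Nos3, the endothelial synthase, is the member whose home cell the ECs represent. Its signal was 2853, 3698 and 2669 in the ECs and 437, 781 and 579 in the normoxia lungs, without overlap, like 65.5% of rows. The difference was 5.22-fold (log2 fold change 2.38 ± 0.22, adjusted p = 0.000160), beside a median log2 fold change of 1.57 for the 10 endothelial markers. Within lung, Nos3 measured 861, 771 and 863 in the lungs labelled Ahr-KO and 791, 790 and 756 in the WT SuHx lungs. The SuHx lungs lay close together around the highest of the normoxia lungs, which spread over a wider range. WT SuHx lung exceeded normoxia by 0.42 ± 0.18 on the log2 scale (95% interval 0.02 to 0.82, adjusted p = 0.143) and Ahr-KO lung by 0.51 ± 0.18 (0.11 to 0.91, adjusted p = 0.108), both with overlap and neither called. These values turn on single normoxia libraries. Without normoxia library 1, at 781, both became calls (WT SuHx by 0.63 on the log2 scale, adjusted p = 0.0286, and Ahr-KO by 0.72, adjusted p = 0.0179). Without normoxia library 0, at 437, they shrank to 0.21 for WT SuHx and 0.30 for Ahr-KO, the lowest of the 19 alternatives, and neither was called. The lungs labelled Ahr-KO and the WT SuHx lungs differed by 0.09 ± 0.18 (-0.31 to 0.49, adjusted p = 0.840). Endothelial markers in lung summed to 72204 to 90077 in the lungs labelled Ahr-KO and 79969 to 83779 in WT SuHx lung, against 91378 to 96038 in normoxia lung, and of the 10, 1 was called higher and 2 lower in either SuHx group. In whole lung, fewer cells of a type and less RNA per cell cannot be told apart.

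The ECs and lung set Nos3 and Pde5a furthest apart among the well-read members, so their promoters are shown (RefSeq, GRCr8, from 250 bases before to 50 after the gene start; the expression table was made on rn6), with that of Nos1, the member with the lowest unadjusted p between genotypes. Capitals mark GCGTG, the core that AhR and its partner bind, and ACGTG, a core bound by hypoxia-inducible factors, on either strand. Each motif was searched on both strands, and a match on either strand counts once.
Nos3, chr4:11706532-11706831, minus strand: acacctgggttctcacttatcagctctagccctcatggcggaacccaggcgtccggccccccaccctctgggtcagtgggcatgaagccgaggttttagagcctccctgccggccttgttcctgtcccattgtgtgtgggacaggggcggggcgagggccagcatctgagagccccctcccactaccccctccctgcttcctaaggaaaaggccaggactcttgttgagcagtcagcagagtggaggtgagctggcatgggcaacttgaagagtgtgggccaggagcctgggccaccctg
Pde5a, chr2:213543776-213544075, plus strand: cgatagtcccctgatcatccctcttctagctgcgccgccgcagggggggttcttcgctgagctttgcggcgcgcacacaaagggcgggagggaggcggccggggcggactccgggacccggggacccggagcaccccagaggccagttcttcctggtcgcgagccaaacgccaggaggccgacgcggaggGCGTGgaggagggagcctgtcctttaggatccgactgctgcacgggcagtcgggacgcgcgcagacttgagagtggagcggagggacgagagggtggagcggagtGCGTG
Nos1, chr12:44371788-44372087, minus strand: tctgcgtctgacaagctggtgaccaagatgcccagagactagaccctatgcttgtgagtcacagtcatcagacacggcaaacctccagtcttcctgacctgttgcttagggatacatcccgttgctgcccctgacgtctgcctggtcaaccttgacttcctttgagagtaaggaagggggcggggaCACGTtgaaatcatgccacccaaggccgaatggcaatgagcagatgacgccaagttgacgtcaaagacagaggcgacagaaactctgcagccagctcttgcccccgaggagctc
Of the 9 genes, 5 matched a promoter by symbol (Nos1, Nos3, Pde5a, Prkg1, Ddah1), and Nos2, Ddah2, Arg1 and Arg2 did not. GCGTG or its complement stood in Pde5a, at -60 and 46 from the gene start, and in Ddah1, at -235, and ACGTG in Nos1, at -64. Among all 33469 promoters of this length 29.7% hold GCGTG and 19.3% ACGTG. Neither Pde5a nor Ddah1 was called between the lungs labelled Ahr-KO and the WT SuHx lungs.

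Nos1, the neuronal synthase, and Nos2, the inducible synthase of activated immune cells, were close to the limit of detection in lung. Nos1 had 11, 18 and 5 reads in the lungs labelled Ahr-KO, 0, 2 and 1 in WT SuHx lungs and 1, 4 and 3 in normoxia lungs; its signal averaged 9.42 ± 6.12 in Ahr-KO, 0.758 ± 0.76 in WT SuHx and 2.17 ± 1.31 in normoxia lungs. The Ahr-KO lungs lay above every other lung library. In all, 34 reads there against 3 in WT SuHx gave a depth-adjusted ratio of 11.4 (exact 95% interval 3.60 to 58.2, counting error only), and 34 against 8 in normoxia a ratio of 4.45 (2.02 to 11.1). Adjusted over all rows, the limma test did not call it against WT SuHx (log2 fold change 2.48 ± 0.61, unadjusted p = 0.00256, adjusted p = 0.139), and 21.9% of rows were without overlap between these groups. Against normoxia it was likewise not called (1.63 ± 0.61, adjusted p = 0.131), where 33% of rows were without overlap. WT SuHx and normoxia lungs overlapped (-0.86 ± 0.61, adjusted p = 0.361). At so few reads the fitted fold changes depend on the added pseudocount. The 6 cardiac muscle markers, none called, summed to 5368 to 23697 in the lungs labelled Ahr-KO and 2554 to 3385 in WT SuHx. Every Ahr-KO library was above every WT SuHx library in this sum, as in Nos1 reads. Within the Ahr-KO group library 2, with the highest sum, had the fewest Nos1 reads. The part of cardiac muscle in the Nos1 reads was not tested. ECs had 19, 32 and 25 Nos1 reads (signals 21.6, 38.6 and 31.2), all above normoxia lung, where 65.5% of rows had no overlap. Nos1 was called 10.3-fold higher in ECs (log2 fold change 3.37 ± 0.47, adjusted p = 0.000842).

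Nos2 had 13, 4 and 3 reads in the lungs labelled Ahr-KO, 3, 0 and 0 in WT SuHx lungs and 2, 3 and 1 in normoxia lungs. The groups overlapped, with Ahr-KO library 0 well above the rest, and no lung comparison was called (Ahr-KO against WT SuHx: ratio of 20 to 3 reads 6.73, exact 95% interval 2.00 to 35.4; log2 fold change 1.81 ± 0.69, adjusted p = 0.302). With 3 reads in all in WT SuHx and 6 in normoxia lungs, no difference between them was detected, within a wide interval (ratio 0.519, exact 95% interval 0.0840 to 2.43). ECs had 54, 56 and 98 reads (signals 61.5, 67.5 and 122), and Nos2 gave the largest difference of the 9 genes, 31.9-fold higher in ECs than in normoxia lung (log2 fold change 4.99 ± 0.43, adjusted p = 0.000119). With 6 reads in normoxia lung, the size of this fold change depends on the pseudocount. The ratio of 208 to 6 reads was 43.7 after adjustment for depth (exact 95% interval 19.7 to 120.5, counting error only). Leukocyte markers moved in the same direction: all 3 were called higher in ECs, with a median log2 fold change of 1.32, and 3 of 6 neutrophil markers were called higher with none lower. EC library 2, highest in Nos2, also had the highest leukocyte sum (15670). Of the 6 macrophage markers tested, none was called higher in ECs by limma and 2 were called lower. The part of these cells in the Nos2 signal was not tested.

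Ddah1 and Ddah2 break down asymmetric dimethylarginine and so lift its brake on the synthases. Ddah1 had the smallest standard error of the 9 in lung, 0.09, with signals of 1391, 1450 and 1639 in the lungs labelled Ahr-KO, 1379, 1274 and 1419 in WT SuHx lungs and 1440, 1424 and 1390 in normoxia lungs. All groups overlapped, and each lung difference was bounded within -0.26 to 0.34 on the log2 scale by its 95% interval (adjusted p = 0.513 to 0.657). ECs were at 1148, 1018 and 1298, below all normoxia lungs, where 65.5% of rows had no overlap. Ddah1 was called 1.23-fold lower there (log2 fold change -0.30 ± 0.11, adjusted p = 0.0420). That call was lost in 9 of 15 alternatives, among them the removal of any normoxia library or of EC library 0 or 1 (adjusted p = 0.0701 to 0.120). Ddah2 measured 1667, 1672 and 1976 in the lungs labelled Ahr-KO and 1639, 1479 and 2177 in WT SuHx lungs, against 1242, 1105 and 1604 in normoxia lungs. The Ahr-KO lungs lay above normoxia without overlap, where 33% of rows had no overlap. WT SuHx library 1 lay below normoxia library 2, the highest of its group. The differences from normoxia were 0.44 ± 0.17 for Ahr-KO (adjusted p = 0.144) and 0.42 ± 0.17 for WT SuHx (adjusted p = 0.130), neither called. With the library number as a replicate block both were called (adjusted p = 0.0155 for Ahr-KO and 0.0131 for WT SuHx). Without library 2 of both the normoxia and the Ahr-KO group, the WT SuHx difference was called (log2 fold change 0.57, adjusted p = 0.0496). Other alternatives weakened both differences, down to 0.26 for WT SuHx and 0.32 for Ahr-KO, with adjusted p in limma up to 0.363 and 0.365. ECs, at 1243, 1311 and 1179, lay inside the normoxia range (log2 fold change -0.06 ± 0.14, 95% interval -0.40 to 0.27).

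The arginases turn L-arginine into ornithine and urea. Arg1, the liver-type arginase that is also induced in macrophages, was at 353, 470 and 222 in ECs and 149, 162 and 128 in normoxia lungs. It was without overlap, like 65.5% of rows, and called 2.28-fold higher (log2 fold change 1.19 ± 0.28, adjusted p = 0.00882). Macrophage markers summed to 8561, 10494 and 3542 in these EC libraries, the same order as Arg1. Endothelial (312981, 318900 and 261127), alveolar epithelial (215326, 230400 and 102559) and airway epithelial sums (23092, 32968 and 14429) had that order too. The other marker sums did not. Of the 6 macrophage markers tested, 0 were called higher in ECs and 2 lower. The part of other cells in the Arg1 signal was not tested. In SuHx Arg1 was not called, at 159, 174 and 167 in the lungs labelled Ahr-KO and 183, 149 and 195 in WT SuHx lungs. All lung groups overlapped (WT SuHx against normoxia 0.26 ± 0.17, adjusted p = 0.305). Arg2, the mitochondrial arginase, had signals of 189.6, 182 and 184 in the lungs labelled Ahr-KO and 164, 196 and 136 in WT SuHx lungs, against 197, 272 and 231 in normoxia lungs. Every SuHx lung lay below every normoxia lung. Of all rows, 36.7% had no overlap between WT SuHx and normoxia and 33% between Ahr-KO and normoxia. The test did not call Arg2 (WT SuHx -0.50 ± 0.18, adjusted p = 0.0921, and Ahr-KO -0.32 ± 0.18, adjusted p = 0.291), and no alternative did. In ECs Arg2 was at 174, 224 and 155, overlapping normoxia (log2 fold change -0.34 ± 0.20, adjusted p = 0.187).

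Pde5a and Prkg1, which end the signal and carry it onward in smooth muscle, were the members lower in ECs by most. Pde5a was at 1651, 1209 and 1367 in ECs against 7915, 9250 and 8263 in normoxia lungs, 6.05-fold lower (log2 fold change -2.60 ± 0.13, adjusted p = 2.2e-05). Prkg1 was at 56.9, 42.2 and 48.7 in ECs against 118, 158 and 159 in normoxia lungs, 2.89-fold lower (log2 fold change -1.53 ± 0.23, adjusted p = 0.00118). For each gene every EC library lay below every normoxia library, and 65.5% of all rows had no overlap in one direction or the other. Of 8 smooth muscle and pericyte markers, 6 were called lower and 1 higher in ECs, with sums of 21190 to 25548 against 26129 to 35381, none of the 8 near 0; their part in the 2 differences was not tested.

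Within lung these 2 genes were spread widely by single libraries. Pde5a measured 8949, 8049 and 5517 in the lungs labelled Ahr-KO and 9675, 9681 and 6774 in WT SuHx lungs. Prkg1 measured 173, 164 and 70.7 in the lungs labelled Ahr-KO and 116, 147 and 60.3 in WT SuHx lungs. In both SuHx groups library 2 was the lowest for both genes. Library 2 of each also had the lowest smooth muscle sum (43978 of 43978 to 65356 in Ahr-KO, 44600 of 44600 to 64501 in WT). Normoxia lungs had another order. Their library 1, with the lowest sum (26129), had the highest Pde5a (9250) and a Prkg1 of 158, near the highest (159). The part of smooth muscle in this spread was not tested. No lung comparison was called. Pde5a differed from normoxia by 0.02 ± 0.20 in WT SuHx (95% interval -0.42 to 0.47) and by -0.20 ± 0.20 in Ahr-KO (-0.65 to 0.24). The intervals of Prkg1 were wider, -1.40 to 0.40 for WT SuHx and -1.09 to 0.72 for Ahr-KO. Smooth muscle and pericyte markers were mostly higher under SuHx (4 called higher and 1 lower of 8 in either group, with sums of 43978 to 65356 in Ahr-KO and 44600 to 64501 in WT against 26129 to 35381 in normoxia), while neither gene was called.

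**Figure D2:**
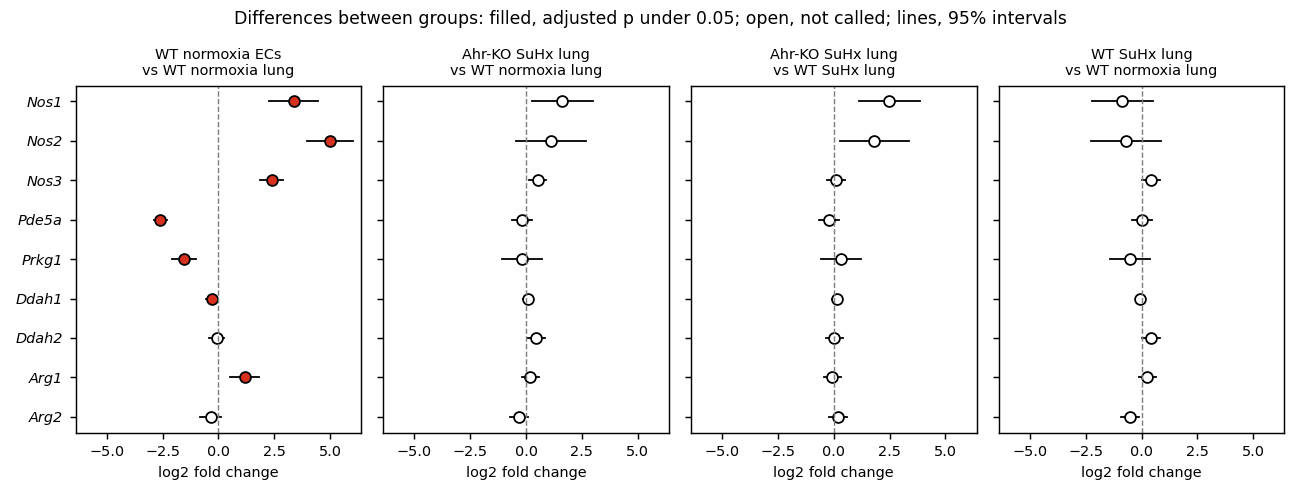
Log2 fold change of the 9 genes in the 4 comparisons, named above each panel with the first-named group over the second; lines are 95% intervals of the difference from limma, filled points passed an adjusted p of 0.05 and open points did not. All 7 filled points lie in the panel of the ECs, and the intervals of Nos1, Nos2 and Prkg1 are the widest of the 9 in lung.

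The rest of the pathway was read from 65 further genes in 8 roles, all with a row and 63 of them tested in each fit; Prkg2 and Agxt2 were below the filter, and 6 share a row with another gene (Nos1ap, Pde2a, Pde11a, Itpr1, Carm1, Slc25a15). In WT SuHx against normoxia lung 5 were called higher and 2 lower (7.08% and 6.39% of all rows), in the lungs labelled Ahr-KO against normoxia 9 and 3 (5.95% and 3.8% of rows), and between the 2 SuHx groups limma called 0 (0.499% of rows), with 19 of 63 at an unadjusted p under 0.05 (13.6% of rows). Their median log2 fold changes were 0.06, 0.12 and 0.04. Every gene called in lung is named next; of these Ass1, Spr, Odc1, Kcnmb1, Trpc6, Npr1 and Pde11a, and Mb in a caption, were chosen after their values were seen. The SuHx comparisons share the normoxia libraries.

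Of the 10 genes of arginine and BH4 supply, 3 were called higher in Ahr-KO and none lower, and 2 were called higher and 1 lower in WT SuHx. Slc7a1, an arginine transporter, measured 477 ± 7.54 in the lungs labelled Ahr-KO and 416 ± 59.8 in WT SuHx lungs, against 274 ± 20.1 in normoxia; it rose in Ahr-KO (log2 fold change 0.80 ± 0.13, adjusted p = 0.00490) and in WT (0.60 ± 0.13, adjusted p = 0.0177). Gch1, GTP cyclohydrolase, the first and rate-limiting enzyme of BH4 synthesis, averaged 557 ± 25.1 in Ahr-KO lungs and 576 ± 137 in WT SuHx lungs, against 300 ± 25.2 in normoxia. It rose in each (0.89 ± 0.17, adjusted p = 0.0122, and 0.91 ± 0.17, adjusted p = 0.0102), and the 2 SuHx groups differed by -0.02 ± 0.17. Spr, sepiapterin reductase, which completes BH4, rose in Ahr-KO (260 ± 72.0 against 122 ± 19.0 in normoxia, adjusted p = 0.0173) and was not called in WT (179 ± 28.8, adjusted p = 0.125). Between the 2 SuHx groups Spr was not called (0.52 ± 0.22, adjusted p = 0.356). Ass1, argininosuccinate synthase, which rebuilds arginine from citrulline, fell in WT SuHx (507 ± 32.4 against 744 ± 27.7 in normoxia, log2 fold change -0.55 ± 0.12, adjusted p = 0.0185). In the lungs labelled Ahr-KO Ass1 was at 651 ± 92.8 and not called (adjusted p = 0.326); the difference between genotypes was not called either (0.35 ± 0.12, adjusted p = 0.256). Odc1, which turns the arginase product ornithine into polyamines, rose in both (0.71 ± 0.15, adjusted p = 0.0212, in Ahr-KO and 0.65 ± 0.15, adjusted p = 0.0252, in WT).

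Further down the pathway, Kcnmb1, the smooth muscle subunit of the BK potassium channel that cGMP kinase opens, averaged 531 ± 60.4 in Ahr-KO lungs and 340 ± 84.9 in WT SuHx lungs, against 197 ± 24.5 in normoxia. It rose in each (1.43 ± 0.19, adjusted p = 0.00190, and 0.76 ± 0.19, adjusted p = 0.0320). The Ahr-KO lungs lay above the WT SuHx lungs without a call (0.67 ± 0.19, adjusted p = 0.191), where 21.9% of rows had no overlap. Of the 8 smooth muscle and pericyte markers 4 were called higher and 1 lower in each SuHx group against normoxia, with a median log2 fold change of 0.82 in Ahr-KO and 0.91 in WT SuHx. Their summed signal was 43978 to 65356 in Ahr-KO and 44600 to 64501 in WT SuHx lungs, against 26129 to 35381 in normoxia lungs, and their part in the rise of Kcnmb1 was not tested. The other genes called higher were Dynll1, a dynein light chain that binds the neuronal synthase (in both SuHx groups), and in Ahr-KO the calmodulin gene Calm3, the globin Cygb and the cation channel gene Trpc6. In 19 alternatives the calls of Calm3, Cygb and Trpc6 in Ahr-KO held in 9, 8 and 7. Those of Dynll1 and Npr1 in Ahr-KO held in 10 and 11, and those of the Pde11a row and Kcnmb1 in WT SuHx in 10 and 12. The other pathway calls of SuHx against normoxia lung held in 13 to 19. Called lower were the row of Pde11a with Cyct, in both groups, and in Ahr-KO the cGMP-specific phosphodiesterase Pde9a (582 ± 61.1 against 836 ± 31.6 in normoxia, adjusted p = 0.0171) and the natriuretic peptide receptor Npr1, a guanylate cyclase of the cell membrane (2665 ± 233 against 3634 ± 184, adjusted p = 0.0291). None of the genes called in Ahr-KO alone was called between the 2 SuHx groups (Pde9a -0.38 ± 0.11, Npr1 -0.36 ± 0.11, adjusted p = 0.195 for each). Of the genes of soluble guanylate cyclase none was called in lung by limma. Gucy1b3 was at 2876 ± 506 in Ahr-KO, 3102 ± 354 in WT SuHx and 2970 ± 157 in normoxia lungs. Gucy1a2 was at 260 ± 82.6 in Ahr-KO and 290 ± 137 in WT SuHx, against 498 ± 88.5 in normoxia lungs. Ahr-KO and normoxia did not overlap, like 33% of rows (log2 fold change -0.97 ± 0.38, unadjusted p = 0.0277, adjusted p = 0.139). WT SuHx and normoxia overlapped (-0.89 ± 0.38, unadjusted p = 0.0404, adjusted p = 0.138). With the library number as a block Gucy1a2 was called lower in both (adjusted p = 0.0171 for Ahr-KO and 0.0166 for WT SuHx). These counts rest on few libraries. The 7 calls of WT SuHx became 1 without normoxia library 0, 3 without normoxia library 1 and 2 without WT SuHx library 0, while Gch1 kept its call in 18 of 19 alternatives. The 12 of Ahr-KO became 3, 5, 7, 2 and 5 without normoxia library 0, normoxia library 1, Ahr-KO library 0, Ahr-KO library 1 and Ahr-KO library 2.

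**Figure D3:**
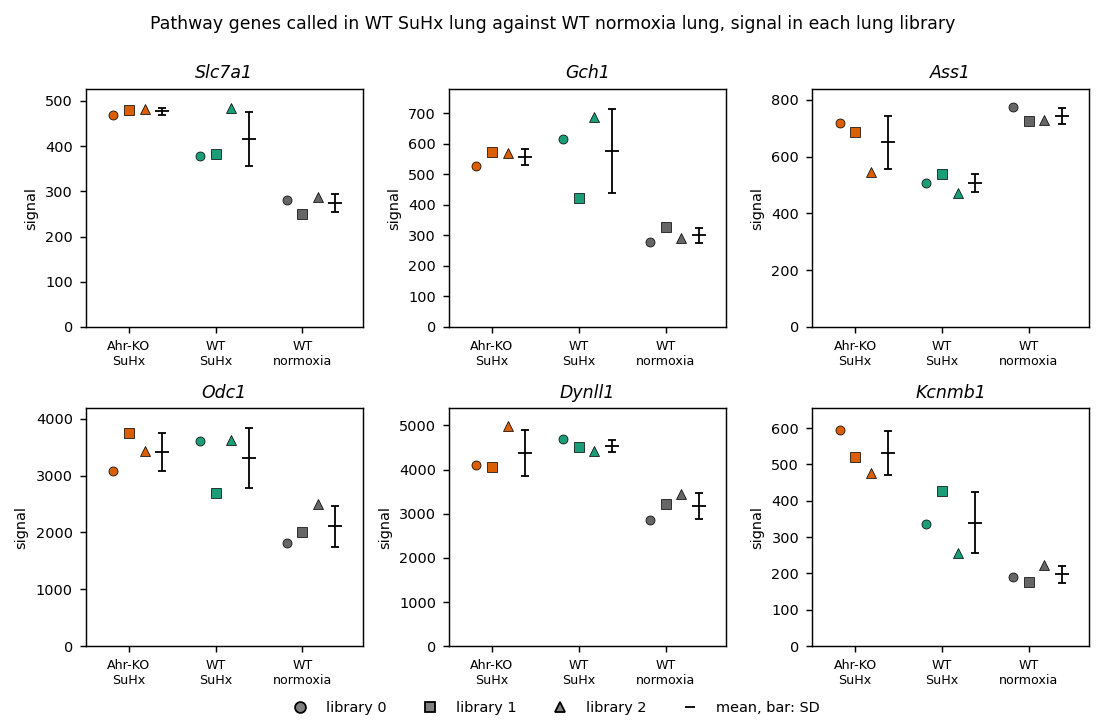
Signal (linear axis from 0) in each lung library of 6 pathway genes called in WT SuHx lung against WT normoxia lung, for lungs labelled Ahr-KO under SuHx, WT SuHx lungs and WT normoxia lungs; bars are mean ± SD (n = 3). For Slc7a1, Gch1, Odc1, Dynll1 and Kcnmb1 every SuHx library lies above every normoxia library, and for Ass1 every SuHx library lies below. Of all rows, 36.7% had no overlap between WT SuHx and normoxia and 33% between Ahr-KO and normoxia.

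In ECs against normoxia lung 21 of the 63 were called higher and 18 lower, 61.9% in all beside the 56.2% of all rows. Of the 4 genes for subunits of soluble guanylate cyclase, the nitric oxide receptor of smooth muscle, 3 were called lower. They were at 742 ± 200 in ECs against 5116 ± 375 in normoxia lung for Gucy1a3 (log2 fold change -2.82 ± 0.20), at 339 ± 98.9 against 2970 ± 157 for Gucy1b3 (-3.17 ± 0.22) and at 106 ± 6.16 against 498 ± 88.5 for Gucy1a2 (-2.21 ± 0.18), with adjusted p = 6.2e-05, 5.4e-05 and 8.7e-05. Gucy1b2, at 3.23 ± 1.53 in ECs against 1.62 ± 0.813 in normoxia lung, was not called (0.68 ± 0.50, adjusted p = 0.279). Npr1 was higher in ECs (7803 ± 750 against 3634 ± 184, log2 fold change 1.10 ± 0.10, adjusted p = 0.000145), so that of the 6 genes of cGMP synthesis 1 was called higher and 3 lower.

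Of the 10 genes of arginine and BH4 supply 3 were called higher and 4 lower. Gch1 (1679 ± 518 in ECs against 300 ± 25.2, log2 fold change 2.44 ± 0.21) and Slc7a1 (1107 ± 207 against 274 ± 20.1, 2.00 ± 0.16) were higher in ECs, as was Gchfr, the feedback regulator of Gch1, with overlapping groups (1.16 ± 0.40, adjusted p = 0.0400). Qdpr, which recycles BH4, was lower (-0.66 ± 0.11, adjusted p = 0.00172), as were Ass1 (-0.60 ± 0.10), Asl, which follows it in arginine synthesis (-0.32 ± 0.10), and Pts, an enzyme of BH4 synthesis (-0.64 ± 0.16). Asl, Gchfr, Pts and Gucy1b2 were named after their values were seen. In 15 alternatives the call of Gchfr held in 8, that of Asl in 7 and that of Txn1, named below, in 7. With the library number as a block in limma, Gchfr and Asl were not called (adjusted p = 0.0743 and 0.0506). Of the 11 genes of cGMP breakdown and export 6 were called higher and 1 lower. Pde9a (2106 ± 213 against 836 ± 31.6, log2 fold change 1.33 ± 0.10) and the cGMP-inhibited Pde3a (5084 ± 694 against 2143 ± 371, 2.38-fold) were higher, and the calcium-dependent Pde1a was lower (25.9 ± 5.72 against 164 ± 38.1, -2.62 ± 0.28). Of the 10 tested kinase targets 4 were called higher and 5 lower. Mrvi1, the IRAG protein that the kinase uses to hold calcium in its store, was called lower (-1.63 ± 0.10, adjusted p = 3.3e-05), as was Prkg1, and Rgs2, a brake on vasoconstrictor receptors, was higher (1.02 ± 0.12, adjusted p = 0.000403). The row of Itpr1, the calcium store channel, was 2.88 ± 0.19 higher on the log2 scale, but it also holds Bhlhe40, and the change cannot be given to 1 of them. The remaining roles were mixed, with 3 higher and 2 lower of 11 synthase partners (Calm3 -1.23 ± 0.08, Calm2 -0.82 ± 0.09), 2 and 2 of 6 genes around the arginase products (Azin1 1.10 ± 0.18, Oat -0.80 ± 0.11, the row of Slc25a15 -0.67 ± 0.10), 1 and 1 of 5 scavenging genes (Txn1 0.50 ± 0.18 with overlapping groups, Cygb -0.96 ± 0.28), and 1 and 0 of 4 methylarginine genes (Prmt1 0.69 ± 0.13).

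**Figure D4:**
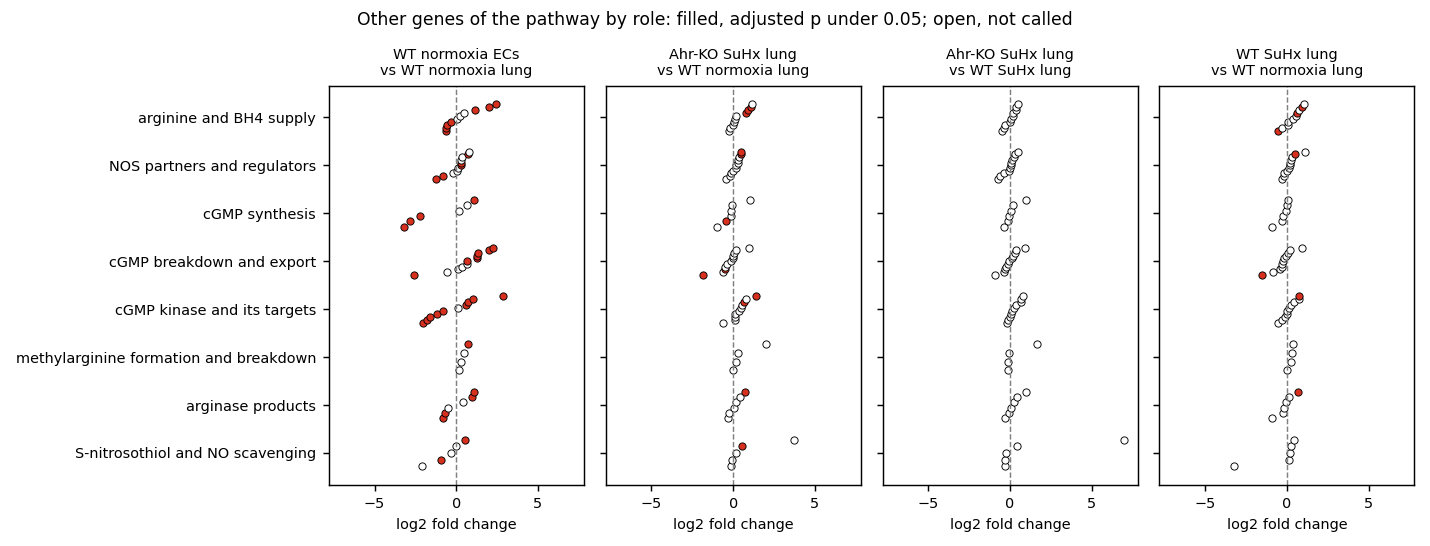
Log2 fold change of the 63 tested pathway genes outside the 9, by role (rows) and comparison (panels, first-named group over the second); each point is a gene, filled where its adjusted p was under 0.05. Filled points are many on each side of 0 in the ECs, few in SuHx against normoxia, and none between the 2 SuHx groups, where the lone open point at 6.96 is the myoglobin gene Mb (adjusted p = 0.245), whose signal of 2270 in Ahr-KO library 2 stands against 24.8 and 81.3 in the other Ahr-KO libraries.

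By the correlation of log2(signal + 1) over the 9 lung libraries, the rows most like Nos3 among 11387 compared were Itga7 (Pearson r = 0.93), Cables1 (0.93) and Mtus2 (0.92). Among the 3 most like Pde5a were Exoc8 (0.93) and Scarb2 (0.93), and those most like Prkg1 were Prkar2a (0.99), Crtc3 (0.97) and Rab6a (0.97). Pde5a and Prkg1 themselves correlated at 0.77, and Pde5a and Ddah1 at -0.84. All these points share the same 9 libraries in 3 groups, and the values are given as a description.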

How the data were processed

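RNA from Trizol lysates was purified on a column with DNase and sequenced after standard Illumina library preparation, per the labels' protocols. FastQC and the rn6 build are named in the submitters' processing notes; the sources used here give no aligner, counter, normalization or strand, and genes that overlap, on either strand, may hold each other's reads. The deposited unit is a signal: from the values, estimated reads that the authors scaled once for each library. Dividing by that scale brought 79.9% to 81.7% of the values above 0 to whole reads (tolerance 0.05), so no count model was used. Of 19230 rows, 1046 merge genes. All 12 columns were used; each was given its group by its name, and its suffix (0 to 2) names the library, since the sample titles number otherwise.

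limma 3.58.1 was run on log2(signal + 1) for rows whose mean signal in the fit reached 1 (R 4.3.3, eBayes with trend, two-sided), adjusting over all tested rows by Benjamini-Hochberg. The 9 lung libraries formed 1 fit, and ECs with normoxia lung another. The script was tested on simulated data. The members and lists were chosen with earlier results of these data known. All 9 members are named; of the other pathway genes the rule took up to 3 called genes per role with the smallest adjusted p in any comparison. A row that merges the markers Csf1r and Pdgfrb was left out of both marker lists. 1 leukocyte marker and 1 row like Pde5a are not reported here. Intervals on reads (exact binomial, 95%) cover counting error only. Alternatives were limma without trend, quantile or median-of-ratios scaling, other filters, pseudocount and libraries in the fit, a fold threshold, the suffix as replicate block, and leaving out single libraries. Same-numbered Ahr-KO and normoxia libraries deviated together (correlations 0.121, 0.19 and 0.24), so the blocked value stands beside results of that comparison where it changes a call; the number comes from the column names.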

Additional observations from a re-analysis of the deposited data

How the results depend on the processing

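Of 642 refits of the 9 genes under the alternatives, 14 changed a call: 9 for Ddah1 in ECs, 3 for Ddah2 and 2 for Nos3. The calls of Nos1, Nos2, Nos3, Pde5a, Prkg1 and Arg1 in ECs held in all 15. The number of the 9 called stayed 0 for Ahr-KO against WT SuHx and was 6 or 7 in ECs; with single libraries left out it was 0 to 1 for WT SuHx and for Ahr-KO against normoxia, and without library 2 of both the normoxia and the Ahr-KO group it was 1 for WT SuHx.

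The suffix as a replicate block gave 1 of the 9 (Ddah2) in WT SuHx (adjusted p = 0.0131) and in Ahr-KO (adjusted p = 0.0155) against normoxia and 6 in ECs; other pathway genes called became 12 in WT SuHx, and calls over all rows 3385 (2052 without the block). Deviations of differently numbered lung libraries of different groups correlated at -0.289 to 0.325. Those of same-numbered lung libraries correlated at -0.03 to 0.29, over 0.1 in 7 of 9 pairs, and 5 of 9 libraries correlated best with their own number. All 3 pairs of Ahr-KO with normoxia were over 0.1 (0.121 to 0.24); the 2 lung pairs that were not include WT SuHx libraries, and the labels do not say what the number marks. In Ahr-KO against normoxia the block changed no call of the listed genes but those of Ddah2 and Gucy1a2. Asking for a log2 fold change of at least 1 left 1 other pathway gene in WT SuHx and 3 in Ahr-KO against normoxia, and 21 in ECs; limma without trend left 7 in Ahr-KO. With single libraries left out they numbered 1 to 9 for WT SuHx and 2 to 16 for Ahr-KO, and without both libraries 2 there was 1 for Ahr-KO against WT SuHx.

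Uncalled log2 fold changes that changed sign had no cause tested. With single libraries left out, WT SuHx against normoxia ranged over -0.0631 to 0.19 for Pde5a; Ahr-KO against WT SuHx over -0.0498 to 0.73 for Prkg1, -0.0973 to 0.18 for Ddah2 and -0.18 to 0.0142 for Arg1; Ahr-KO against normoxia over -0.34 to 0.005 for Pde5a and -0.41 to 0.23 for Prkg1; and ECs over -0.18 to 0.0863 for Ddah2. Quantile normalization gave 0.0045 for Ddah1 in WT SuHx and 0.0796 for Arg2 in ECs. Without both libraries 2, Ahr-KO gave -0.0606 for Ddah2 against WT SuHx, and 0.30 for Prkg1 and -0.0122 for Ddah1 against normoxia. At a mean signal of at least 5 Nos1 and Nos2 were not tested in lung; for ECs the removal of both libraries equals that of normoxia library 2. Depth limits Nos1 and Nos2 in lung, with 3 to 34 reads a group.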
